A study of Mus musculus with 9 samples.

Results

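The genes described are those for IGF binding proteins and IGF receptors, chosen by name: *Igfbp2* to *Igfbp7*, *Igf1r* and *Igf2r*. Of these 8 genes, 6 had at least 1 probe set whose only gene symbol was theirs, with 14 probe sets in all among the 17097 genes measured. *Igfbp7* and *Igf2r* had no such probe set and were not analysed here. For a gene with several probe sets the brightest over the 9 arrays was taken as the main value, and the others are given beside it.

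Messenger RNA was profiled on Affymetrix arrays from basal cells of the tail epidermis of CD1 mice, for which the labels name no transgene, 4 days after a circular wound of 3 mm in diameter. In 3 groups of 3 arrays, 300 cells per array were sorted as α6-integrin positive and CD34 negative. The leading edge (LE) group came from a 4 mm punch around the wound and was α5-integrin positive. The proliferative hub group was α5-integrin negative, for which the methods describe a 6 mm punch, although their account of the α5-integrin sort names only the 4 mm one. The control group was taken at a distance from the wound, and its label gives no α5-integrin gate. Pools of 5 mice are stated for the study's duplicate samples and not restated for these 3 replicates, and the age of the mice was not given for them. Region, wounding and gate therefore cannot be told apart between the groups. The labels call the arrays biological replicates and the methods call them technical, so the p-values measure the spread between these arrays only.

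The insulin-like growth factors IGF1 and IGF2 are secreted ligands that drive growth and survival through a receptor tyrosine kinase, encoded by *Igf1r*. A family of secreted binding proteins holds most of the ligand outside cells, which can limit its access to the receptor or prolong its life, and proteases that cut the binding proteins release it. Downstream, receptor substrates and PI3 kinase activate AKT, which keeps FoxO transcription factors out of the nucleus. In skin, IGF1 is known mainly as a product of dermal cells that acts on keratinocytes.

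The sorted cells carried the genes of basal keratinocytes. The keratin genes *Krt5* and *Krt14* lay between 13.28 and 13.32 on the log2 scale as means of all 3 groups. *Cd34*, used to exclude bulge cells, had group means of 4.79, 4.74 and 4.60 in LE, hub and control, close to the median of 4.66 over 23 nonspecific background probe sets, whose single values ran from 3.66 to 8.61. *Itga5*, the gene of the sorted α5-integrin, averaged 9.11 ± 0.05 at the LE, 6.92 ± 0.51 in the hub and 6.40 ± 0.14 in control (log2, SD, n = 3). *Itga6*, the gene of the sorted α6-integrin, averaged 12.27, 11.80 and 11.58 in LE, hub and control. Of 6 basal keratinocyte genes, *Itga6* and *Itgb4* were higher at the LE than in hub, by 0.47 and 0.38. They exceeded control by 0.69 and 0.34, each with a limma adjusted p under 0.05. The others were not under that level in any comparison. Array medians lay between 6.47 and 6.53.

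*Igfbp3* was highest at the LE and lowest in the hub, and *Igfbp2* was lowest at the LE. *Igf1r* was higher at the LE than in control skin. No difference was called for *Igfbp4*, *Igfbp5* or *Igfbp6*. A gene was called where its Benjamini-Hochberg adjusted p in limma, over all 17097 genes, was under 0.05. Between LE and hub, 1 of the 6 genes was called higher, against 5.39% of all genes, and 1 was called lower, against 5.23%. Between LE and control, 2 were called higher, against 11.9% of all genes, and 1 lower, against 10.8%. Between hub and control, 0 were called higher, against 4.16% of all genes, and 1 lower, against 3.12%. The median change of the 6 genes was 0.18, 0.21 and -0.03 in these comparisons, beside -0.01, 0.02 and 0.03 over all genes (log2). The changes were small: 0 of the 6 genes changed more than 2-fold in every same-numbered pair of arrays, a reading of the methods' rule of 2-fold in each replicate, and 1.04%, 3.01% and 0.521% of all genes did in LE against hub, LE against control and hub against control.

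**Figure D1:**
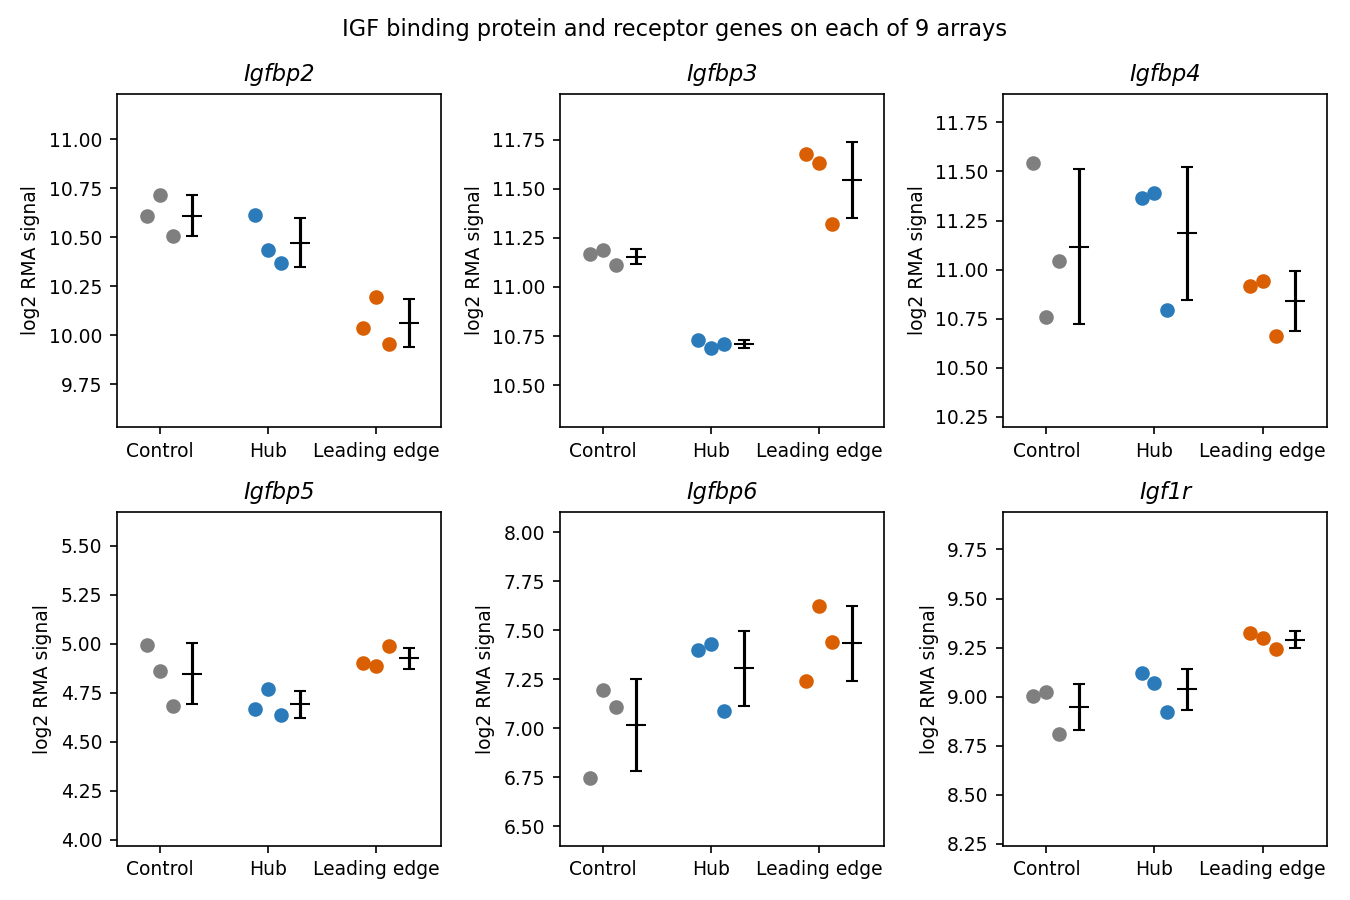
Log2 RMA signal (vertical axis) of the main probe set of 6 genes in control, hub and leading edge arrays (horizontal axis). Coloured points are single arrays, black bars are the group mean ± SD (n = 3), and every panel spans the same log2 range around its own mean. *Igfbp3* separates all 3 groups, the LE arrays of *Igfbp2* lie under the rest, and the LE arrays of *Igf1r* lie above the rest.

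The stretches around the transcription start of the 3 genes with a called difference are shown because the results turn on these genes. Each runs from 250 bases before to 50 after the start in the RefSeq promoter table (build GRCm38.p6), 5′ to 3′ on the gene's strand, with matches to the GC box GGGCGG in capitals. *Igfbp3* is on the minus strand (chr11:7213874-7214173), with this start 1575 bases inside the 5′ end of the annotated gene, *Igfbp2* on the plus strand (chr1:72824230-72824529) and *Igf1r* on the plus strand (chr7:67952007-67952306).
Igfbp3: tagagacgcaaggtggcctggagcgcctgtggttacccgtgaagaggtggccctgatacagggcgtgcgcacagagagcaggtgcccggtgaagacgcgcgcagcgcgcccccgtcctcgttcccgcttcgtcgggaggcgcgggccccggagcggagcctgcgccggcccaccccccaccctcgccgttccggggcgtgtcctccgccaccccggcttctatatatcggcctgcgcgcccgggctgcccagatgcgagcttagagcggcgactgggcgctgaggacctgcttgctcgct
Igfbp2: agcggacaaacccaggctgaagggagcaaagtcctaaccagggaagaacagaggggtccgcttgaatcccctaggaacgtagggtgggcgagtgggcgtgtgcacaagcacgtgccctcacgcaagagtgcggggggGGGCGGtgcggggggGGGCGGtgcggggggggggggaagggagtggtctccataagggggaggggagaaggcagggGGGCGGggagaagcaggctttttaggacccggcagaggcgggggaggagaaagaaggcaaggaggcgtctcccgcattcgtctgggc
Igf1r: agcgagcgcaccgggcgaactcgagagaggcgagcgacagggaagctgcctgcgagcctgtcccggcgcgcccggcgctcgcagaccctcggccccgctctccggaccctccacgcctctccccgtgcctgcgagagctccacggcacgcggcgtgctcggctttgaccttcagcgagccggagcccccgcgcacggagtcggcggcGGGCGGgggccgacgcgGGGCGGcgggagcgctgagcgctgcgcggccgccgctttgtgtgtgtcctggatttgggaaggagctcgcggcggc

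All 3 stretches are rich in G and C, at 71.7% for *Igfbp3*, 67.0% for *Igfbp2* and 76.0% for *Igf1r*. The GC box, searched on both strands, was found 3 times in *Igfbp2*, 2 times in *Igf1r* and 0 times in *Igfbp3*, and 35.7% of 32851 promoters of this length hold it. Over the 8 listed genes, 4 held a GC box. The AP-1 motif TGANTCA and the FoxO motif GTAAACA were in 0 of the 8, against 7.81% and 3.65% of all promoters. The letters TATAAA of the TATA box, searched on both strands like the other motifs, were in 2 of the 8, against 13.6%. The match in *Igfbp4* was on the gene's strand, and that in *Igfbp6* only on the opposite strand. No motif contains another, and a match describes the letters in this window only.

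*Igfbp3* encodes the main carrier of IGFs in blood, where it forms a complex with the acid-labile subunit, and is also made by keratinocytes. The gene lies on chromosome 11 at 7206086 to 7215498, minus strand, 3539 bases from the end of *Igfbp1*. Its log2 signal was 11.68, 11.63 and 11.32 on the LE arrays, 10.73, 10.69 and 10.71 on the hub arrays, and 11.17, 11.19 and 11.11 on the control arrays. The 3 groups did not overlap, with control between LE and hub, and LE replicate 3 was the lowest of its group. LE exceeded hub by 0.84 ± 0.09 (log2, SE, 95% interval 0.63 to 1.05), a 1.78-fold difference, with an adjusted p of 0.000535. This was the 497th largest difference among 17097 genes.

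Against control, *Igfbp3* moved in opposite directions in the 2 wound regions. LE exceeded control by 0.39 ± 0.09 (interval 0.18 to 0.60), 1.31-fold, with an adjusted p of 0.0142. Hub was below control by a log2 change of -0.45 ± 0.09 (interval -0.66 to -0.24), 1.36-fold, with an adjusted p of 0.0206. Both comparisons share the control arrays, and the direct test of LE against hub given above is the test of the difference between them. The call against control was lost for LE without LE replicate 2 (adjusted p = 0.0577), and for hub without any of hub replicates 1, 2 and 3 or control replicates 1 and 2 (adjusted p up to 0.0701). The call of LE against hub held when any 1 array was left out, with a log2 difference between 0.77 and 0.95.

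*Igfbp2* encodes a carrier that binds both ligands and, through an RGD sequence, can bind integrins. It lies on chromosome 1 at 72824480 to 72852474, plus strand. Its log2 signal was 10.04, 10.20 and 9.96 at the LE, 10.61, 10.44 and 10.37 in the hub, and 10.61, 10.71 and 10.51 in control. All LE arrays were below all others, while hub and control overlapped. LE was below control by a log2 change of -0.55 ± 0.10 (interval -0.76 to -0.33), 1.46-fold, with an adjusted p of 0.00257. LE was below hub by -0.41 ± 0.10 (interval -0.62 to -0.19), with an adjusted p of 0.0238. Hub against control gave -0.14 ± 0.10 (interval -0.35 to 0.08), with an adjusted p of 0.519. The call against control held when any 1 array was left out, and that against hub was lost without LE replicate 1, LE replicate 3, hub replicate 1 or hub replicate 2 (adjusted p up to 0.0877).

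*Igfbp4* encodes a carrier that the protease PAPP-A cuts. It lies on chromosome 11 at 99040005 to 99052655. The brightest of its 6 probe sets read 10.92, 10.94 and 10.66 at the LE, 11.37, 11.39 and 10.79 in the hub, and 11.54, 10.76 and 11.05 in control. The groups overlapped, and the spread within hub and control was as wide as the gaps between means. LE against hub gave -0.34 ± 0.21 (interval -0.82 to 0.13), with an adjusted p of 0.410. Over the 6 probe sets, the log2 differences ran from -0.34 to -0.05 for LE against hub, from -0.28 to 0.11 for LE against control and from 0.06 to 0.41 for hub against control, and 0 probe sets were called in any of them.

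*Igfbp5* encodes a carrier that also binds matrix. It lies on chromosome 1 at 72858065 to 72874865, minus strand, 5590 bases from the end of *Igfbp2*. Its values were 4.90, 4.89 and 4.99 at the LE, 4.67, 4.77 and 4.64 in the hub and 4.99, 4.86 and 4.68 in control, all near the background median of 4.66. The adjusted p was 0.140, 0.597 and 0.395 for LE against hub, LE against control and hub against control.

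*Igfbp6* encodes a carrier that prefers IGF2 and lies on chromosome 15 at 102144186 to 102149512. It read 7.24, 7.62 and 7.44 at the LE, 7.40, 7.43 and 7.09 in the hub and 6.75, 7.20 and 7.11 in control. These lie within the range of the background probe sets. The LE arrays were above all control arrays, by 0.42 ± 0.15 on average (interval 0.09 to 0.75), and the adjusted p was 0.0725. It was 0.716 for LE against hub and 0.329 for hub against control.

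*Igf1r* encodes the receptor through which both ligands signal, and lies on chromosome 7 at 67952257 to 68233668, plus strand. Its brightest probe set read 9.33, 9.30 and 9.24 at the LE, 9.12, 9.07 and 8.92 in the hub and 9.01, 9.02 and 8.81 in control. All LE arrays were above all others, and hub and control overlapped. LE exceeded control by 0.34 ± 0.08 (interval 0.16 to 0.53), 1.27-fold, with an adjusted p of 0.0154, and the call held when any 1 array was left out. LE exceeded hub by 0.25 ± 0.08 (interval 0.06 to 0.44), with an adjusted p of 0.0946, and hub against control gave 0.09 ± 0.08, with an adjusted p of 0.655.

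The other probe sets of *Igf1r* gave larger differences from control in 2 of 3 cases. The second in brightness read 9.34, 9.42 and 9.36 at the LE, 8.90, 8.92 and 8.61 in the hub and 8.59, 8.62 and 8.23 in control. In a fit of all probe sets its difference was 0.57 for LE against hub, with an adjusted p of 0.018, and 0.90 for LE against control, with an adjusted p of 0.001. Over the 4 probe sets, LE was higher than hub by 0.25 to 0.65 with 1 called, and higher than control by 0.25 to 0.90 with 3 called. Hub against control ran from -0.03 to 0.33 with 0 called. The direction of the LE differences was shared by all 4 probe sets, and their size was not.

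**Figure D2:**
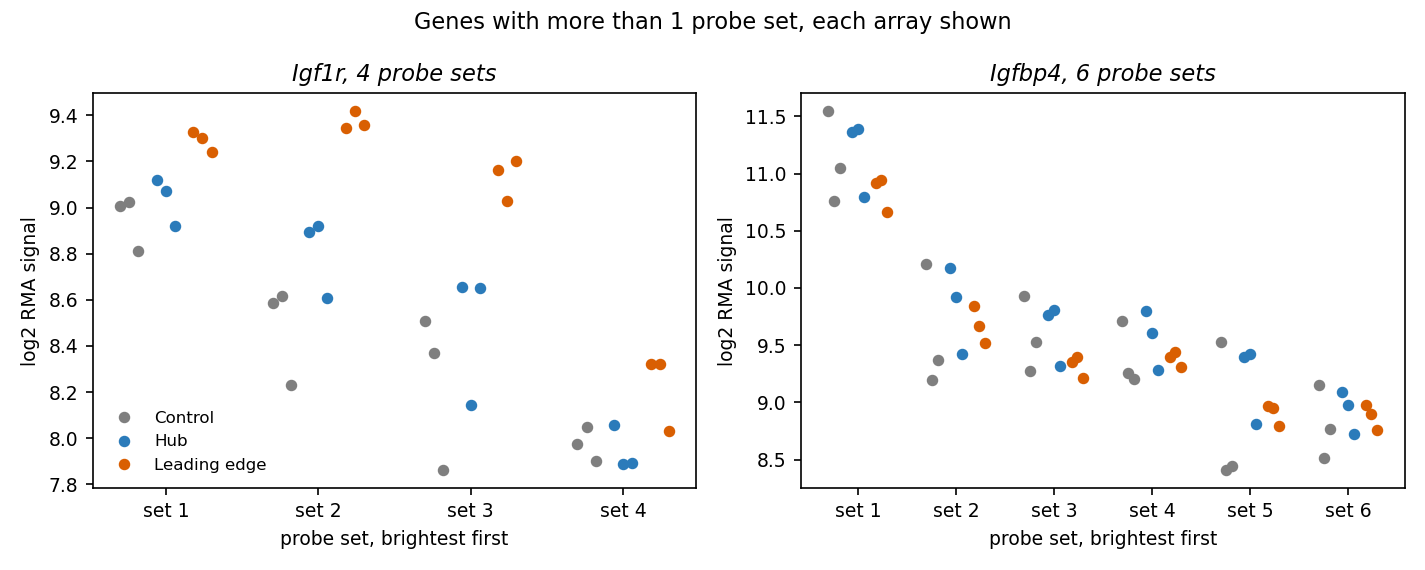
Log2 RMA signal (vertical axis) of every probe set of *Igf1r* and *Igfbp4* (horizontal axis, brightest first), with each array as a point in grey for control, blue for hub and orange for the LE. For *Igf1r* the LE arrays lie above all hub and control arrays in the first 3 sets, while for *Igfbp4* the groups overlap in all 6.

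**Figure D3:**
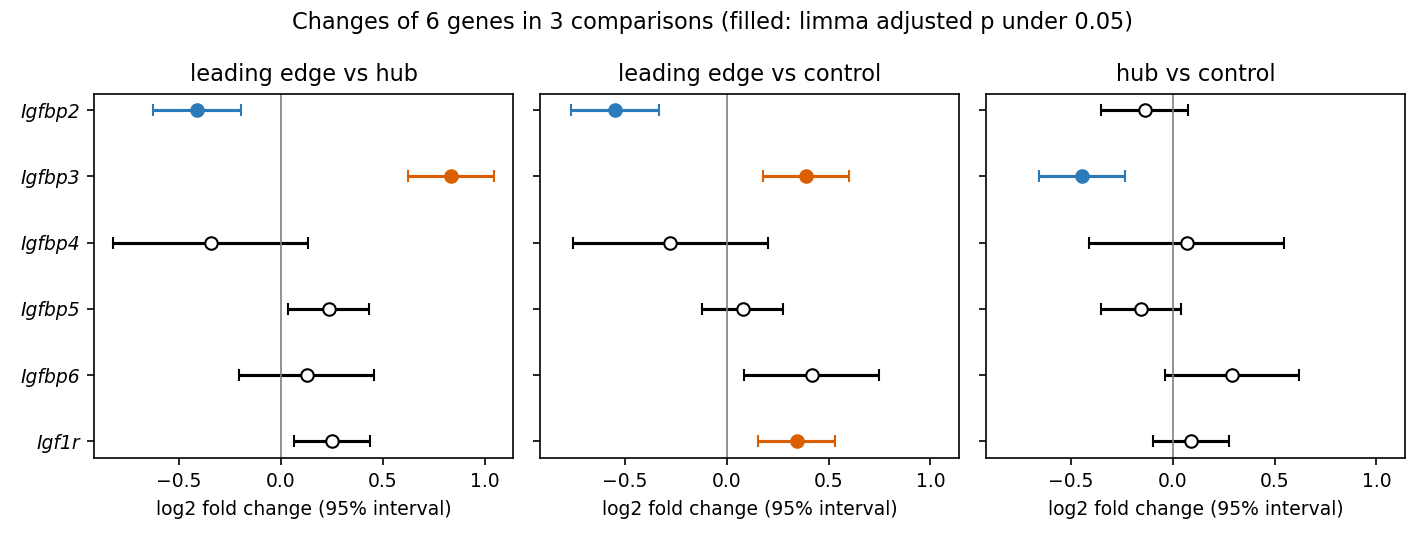
Log2 fold change (horizontal axis) of 6 genes (vertical axis) with its 95% interval from limma in 3 comparisons, where filled symbols mark an adjusted p under 0.05 (orange higher, blue lower in the first group). *Igfbp3* is called in all 3 comparisons, *Igfbp2* in both that involve the LE, and *Igf1r* in LE against control.

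Markers of other cell types were read beside these values. The mean log2 level of 9 fibroblast genes was 5.94 to 6.08 on the LE arrays, 6.15 to 6.20 in the hub and 6.26 to 6.32 in control, and 0 of the 9 were called higher in any comparison. *Thy1* was called lower at the LE than in hub, *Dcn* and *Thy1* lower at the LE than in control, and *Dcn* lower in the hub than in control. The other fibroblast genes were called in no comparison. *Thy1* is also a T cell gene, and was the only one called of 4 T cell genes measured. Their mean, with *Thy1* included, was 6.34 to 6.54 at the LE, 6.72 to 6.74 in the hub and 6.70 to 6.76 in control. The mean of 6 suprabasal keratinocyte genes was 8.65 to 9.04 at the LE, 9.36 to 9.46 in the hub and 9.23 to 9.49 in control. Of these 6, the differentiation keratins *Krt1* and *Krt10* were called lower at the LE in both comparisons, and *Ivl*, a cornified envelope gene, was called higher at the LE than in control, by 0.57. The mean of 8 hair follicle genes was 6.82 to 7.18 at the LE, 6.59 to 7.06 in the hub and 7.06 to 7.33 in control. *Nfatc1* was called lower than control at the LE, by -0.48, and in the hub, by -0.39. *Krt75* was called lower than control at the LE, by -0.83, and the other follicle genes were called in no comparison. The mean of 10 endothelial genes was 7.47, 6.49 and 6.55 on LE replicates 1, 2 and 3, against 6.16 to 6.87 on the hub and control arrays, with 0 genes called. The mean of 10 myeloid genes was 6.69, 5.80 and 6.47 on the LE replicates, against 5.76 to 5.86, so LE replicates 1 and 3 stood above the rest. *Cd14* was called higher at the LE than in hub, by 0.88, and *Cd14* and *Lyz2* higher than in control, by 0.89 and 1.85. The mean of 4 Langerhans cell genes was 7.41, 7.65 and 8.24 on the LE replicates, all above the 6.88 to 7.13 of hub and control. *Epcam* and *H2-Ab1* were called higher at the LE than in hub, by 1.04 and 1.93, and *H2-Ab1* higher than in control, by 2.34, while *Epcam* was lower in the hub than in control, by -0.80. The other members, *Cd207* and *Cd74*, were called in no comparison. At the LE *Cd207* differed by -0.06 from hub and -0.10 from control, and *Cd74* by 0.24 and 0.16. The mean of 6 melanocyte genes was 6.98 on LE replicate 3 and 5.94 to 6.28 on the others, with 0 genes called. Of 6 Merkel cell genes only *Krt18* was called, higher at the LE than in hub, by 0.41, and than in control, by 0.62. Of 6 pericyte and smooth muscle genes measured, *Rgs5* was called higher than control at the LE, by 0.23, and *Notch3* in the hub, by 0.49. Of 4 skeletal muscle genes 0 were called. Without LE replicate 1, and likewise without LE replicate 3, 1 of the 6 genes described was called in LE against hub, 3 in LE against control and 1 in hub against control. The part of these cells in the results was not tested, and fewer cells of a type cannot be told apart from less RNA per cell.

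Of 64 other genes of the pathway, 54 had a probe set of their own. Between LE and hub 5 were called higher and 7 lower, between LE and control 8 and 13, and between hub and control 2 and 5. The shares of all genes called higher and lower were 5.39% and 5.23%, 11.9% and 10.8%, and 4.16% and 3.12% in the same order. The median changes of the 54 genes were -0.03, -0.04 and -0.004.

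The ligand genes read within the range of the background probe sets. *Igf1* read 6.79, 6.95 and 6.97 at the LE, 7.15, 7.17 and 6.92 in the hub and 6.55, 6.98 and 6.87 in control, and was called in no comparison (adjusted p from 0.230 to 0.610). *Igf2* read 5.97, 6.40 and 6.54 at the LE, 6.39, 6.34 and 6.45 in the hub and 6.75, 6.64 and 6.86 in control. Its LE arrays were below its control arrays, with a log2 change of -0.45 ± 0.13 and an adjusted p of 0.0378, but this call was lost under 10 of 18 alternatives. The 3 other binding protein genes measured, *Igfbp1*, *Igfbpl1* and *Igfals*, were called in no comparison, with *Igfbp1* between 5.57 and 5.84 on all arrays. Of the *Igf2* mRNA binding proteins, *Igf2bp3* was lower at the LE than in control by a log2 change of -0.95 (adjusted p = 0.00459), in 1 of its 4 probe sets. Its LE mean of 6.12 lay under the upper quartile of 6.35 of the background probe sets.

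Between LE and hub, the largest change of the pathway genes was that of *Prss23*, a secreted serine protease gene. It was listed with the genes for proteases that cut binding proteins and for their inhibitors, but such cutting by its product was not tested. Of the 8 genes of this list, 3 were called higher and 1 lower in LE against hub. In LE against control 3 were higher and 1 lower, and in hub against control 0 were higher and 1 lower. The list medians were 0.26, 0.31 and 0.09 in these comparisons. Of all genes, 5.39% were higher and 5.23% lower in the first comparison, 11.9% and 10.8% in the second, and 4.16% and 3.12% in the third. *Prss23* read 10.06, 9.70 and 9.77 at the LE, 7.67, 8.03 and 7.74 in the hub and 9.35, 9.33 and 9.72 in control. The hub arrays were below all others and within the range of the background probe sets. LE exceeded hub by 2.03 ± 0.14 (adjusted p = 3.9e-05) and hub was below control by -1.65 ± 0.14 (adjusted p = 0.000321). LE against control gave 0.38 with an adjusted p of 0.0932. Its 3 probe sets ranged from 0.26 to 2.33 for LE against hub, with 2 called. They ran from -0.09 to 0.95 for LE against control, with 1 called, and from -1.65 to -0.35 for hub against control, with 2 called. The difference between LE and control was called with the mean of probe sets and without control replicate 3.

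*Pappa*, which encodes the protease PAPP-A that cuts IGFBP4, read 6.52, 6.82 and 6.79 at the LE, 7.48, 7.60 and 7.16 in the hub and 7.64, 7.87 and 7.87 in control. All these values lie within the range of the background probe sets, above their upper quartile of 6.35. LE was below hub by -0.70 ± 0.13 (adjusted p = 0.00731) and below control by -1.08 ± 0.13 (adjusted p = 0.000263). Its 3 probe sets ran from -0.70 to -0.04 against hub with 1 called, and from -1.08 to -0.09 against control with 2 called, and the value given is the largest of each. With the mean of probe sets both calls of *Pappa* held. *Stc2*, whose product inhibits PAPP-A, moved the other way, with LE above hub by 0.52 ± 0.08 (adjusted p = 0.00326) and above control by 0.73 ± 0.08 (adjusted p = 0.000166). Over the 3 probe sets of *Stc2*, LE exceeded hub by 0.09 to 0.52 with 1 called and control by 0.21 to 0.73 with 2 called, and the call against hub was lost with the mean of probe sets (adjusted p = 0.0741). The LE arrays of *Stc2* read 7.38, 7.48 and 7.61, above 6.91, 6.97 and 7.03 in the hub and 6.75, 6.68 and 6.84 in control. The values of *Stc2* also lie within the range of the background probe sets. *Htra1*, a secreted serine protease gene, was higher at the LE than in hub by 0.65 ± 0.12 (adjusted p = 0.00757) and than in control by 0.44 ± 0.12 (adjusted p = 0.0261). The second of these was lost without LE replicate 1, LE replicate 2 or control replicate 3 (adjusted p up to 0.0908). *Adam12*, a metalloprotease gene, read 8.15, 7.78 and 6.13 at the LE, 5.88, 7.07 and 6.80 in the hub and 5.75, 5.65 and 5.61 in control. All its control arrays, hub replicate 1 and LE replicate 3 lay under the upper quartile of 6.35 of the background probe sets. *Adam12* was called in LE against control at 1.69 ± 0.47 (adjusted p = 0.0289), and LE replicate 3 lay among the hub arrays. Its other probe set gave 0.61 and was also called in a fit of all probe sets. The call of the main probe set was lost without LE replicate 1 or 2 or without any of control replicates 1, 2 and 3.

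Among the other receptors, *Lrp1*, a large endocytic receptor that binds IGFBP3, was higher at the LE than in control by 0.60 ± 0.08 (adjusted p = 0.00065) and than in hub by 0.35 ± 0.08 (adjusted p = 0.0255). The second of these calls was lost under 6 of 18 alternatives. The insulin receptor gene *Insr* read 8.18, 8.82 and 8.34 at the LE, 8.62, 8.92 and 8.80 in the hub and 9.17, 8.97 and 8.92 in control. It was lower at the LE than in control by -0.57 ± 0.16 (adjusted p = 0.0265), in 1 of its 3 probe sets, and lost the call under 6 of 18 alternatives. Of the 3 receptor genes listed, 1 was called higher and 0 lower in LE against hub, 1 and 1 in LE against control, and 0 and 0 in hub against control. Of all genes, 5.39% and 5.23%, 11.9% and 10.8%, and 4.16% and 3.12% were higher and lower in the same order.

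Of the adaptors and kinases, *Irs1* and *Pik3r1* were lower at the LE than in hub and lower in hub than in control. Of 16 genes measured of 20, 0 were called higher and 2 lower in LE against hub, 2 and 2 in LE against control, and 0 and 2 in hub against control. In LE against control 2 of 16 in each direction is near the 11.9% and 10.8% of all genes. Over all genes 5.39% were higher and 5.23% lower in LE against hub, and 4.16% and 3.12% in hub against control. *Irs1*, the substrate that links the receptor to PI3 kinase, read 5.86, 6.18 and 6.18 at the LE, 7.16, 7.04 and 7.25 in the hub and 8.06, 7.82 and 8.33 in control. The groups were in order with no overlap. The LE values lie within the range of the background probe sets and under their upper quartile of 6.35, so no fold is given. The log2 change was -2.00 ± 0.14 for LE against control (adjusted p = 8.46e-06), -1.07 ± 0.14 for LE against hub (adjusted p = 0.00107) and -0.93 ± 0.14 for hub against control (adjusted p = 0.00403). *Pik3r1*, the regulatory subunit of PI3 kinase, read 10.07, 10.28 and 10.16 at the LE, 10.81, 10.52 and 10.58 in the hub and 11.18, 11.08 and 10.88 in control. It was lower at the LE than in control by -0.88 ± 0.11 (adjusted p = 0.000289) and than in hub by -0.46 ± 0.11 (adjusted p = 0.022), and all 4 of its probe sets were called in both comparisons. The call against hub was lost without LE replicate 1, LE replicate 3 or hub replicate 1 (adjusted p up to 0.0779). Its call in hub against control, at -0.41 with an adjusted p of 0.0471, was lost under 10 of 18 alternatives. *Akt1* and *Pdpk1* were called higher at the LE than in control, by 0.29 and 0.25 with adjusted p of 0.0481 and 0.0486, and lost the call under 14 and 13 of 18 alternatives.

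Of 12 FoxO factors and targets measured, 3 were called lower in LE against hub, 6 in LE against control and 2 in hub against control, where 5.23%, 10.8% and 3.12% of all genes were lower. None of the 12 was called higher, but with 5.39%, 11.9% and 4.16% of all genes higher, 0 of 12 is near that background. The list medians were -0.26, -0.60 and -0.22. The factors *Foxo1*, *Foxo3* and *Foxo4* were themselves called in no comparison. *Txnip*, an inhibitor of thioredoxin and of glucose uptake, read 9.65, 9.55 and 9.58 at the LE, 10.91, 10.89 and 10.77 in the hub and 11.47, 11.45 and 11.32 in control. It was lower at the LE than in control by -1.82 ± 0.07 (adjusted p = 5.08e-07) and than in hub by -1.27 ± 0.07 (adjusted p = 1.75e-05), and lower in the hub than in control by -0.55 ± 0.07 (adjusted p = 0.00251). *Sesn1*, a stress gene that restrains mTORC1, was lower at the LE than in hub by -1.11 ± 0.15 and than in control by -1.07 ± 0.15, while hub and control overlapped. *Sesn3*, its relative, was lower at the LE than in control by -1.16 ± 0.18 and than in hub by -0.66 ± 0.18, the latter call being lost under 6 of 18 alternatives. *Ccng2*, a cyclin that slows the cell cycle, was lower than control in both wound regions, by -0.87 ± 0.11 at the LE and -0.87 ± 0.11 in the hub. Its 2 probe sets ran from -0.87 to -0.53 at the LE and from -0.87 to -0.69 in the hub, with 1 called in each. *Bcl6* and the cell cycle inhibitor *Cdkn1b* were lower at the LE than in control by -0.65 and -0.78. All values of *Sesn3* and *Ccng2*, and the LE values of *Sesn1*, lie within the range of the background probe sets.

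*Igf2r*, which was not analysed here, also sorts lysosomal enzymes by their mannose 6-phosphate tag, and 8 of 12 other genes of that route were measured. In LE against hub 1 was called higher and 1 lower, in LE against control 2 and 1, and in hub against control 2 and 0. Of all genes, 5.39% and 5.23%, 11.9% and 10.8%, and 4.16% and 3.12% were higher and lower in the same order. *Ctsl*, a lysosomal protease gene, read 12.16, 12.17 and 12.17 at the LE, 11.49, 11.51 and 11.56 in the hub and 11.20, 11.20 and 11.10 in control, so the groups were in order without overlap. It exceeded control by 1.00 ± 0.06 at the LE (adjusted p = 5.34e-06) and by 0.35 ± 0.06 in the hub (adjusted p = 0.00992). The call in the hub was lost with the mean of its 2 probe sets (adjusted p = 0.101), of which 1 was called. *Gnptab*, a subunit of the enzyme that adds the tag, was lower at the LE than in control by -0.96 ± 0.14 (adjusted p = 0.000928) and than in hub by -0.63 ± 0.14 (adjusted p = 0.0199). The latter call was lost without any of LE replicates 1, 2 and 3 or hub replicates 2 and 3. Over the 3 probe sets of *Gnptab*, LE differed from control by -1.19 to -0.20 with 2 called. From hub it differed by -1.31 to -0.49 with 3 called. The main values of *Gnptab* lie within the range of the background probe sets. *Ctsb* was higher than control by 0.31 at the LE and by 0.25 in the hub, the latter call being lost under 11 of 18 alternatives. Its 4 probe sets ran from -0.05 to 0.46 for LE against control and from -0.12 to 0.41 for hub against control. In each of these comparisons 2 were called.

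**Figure D4:**
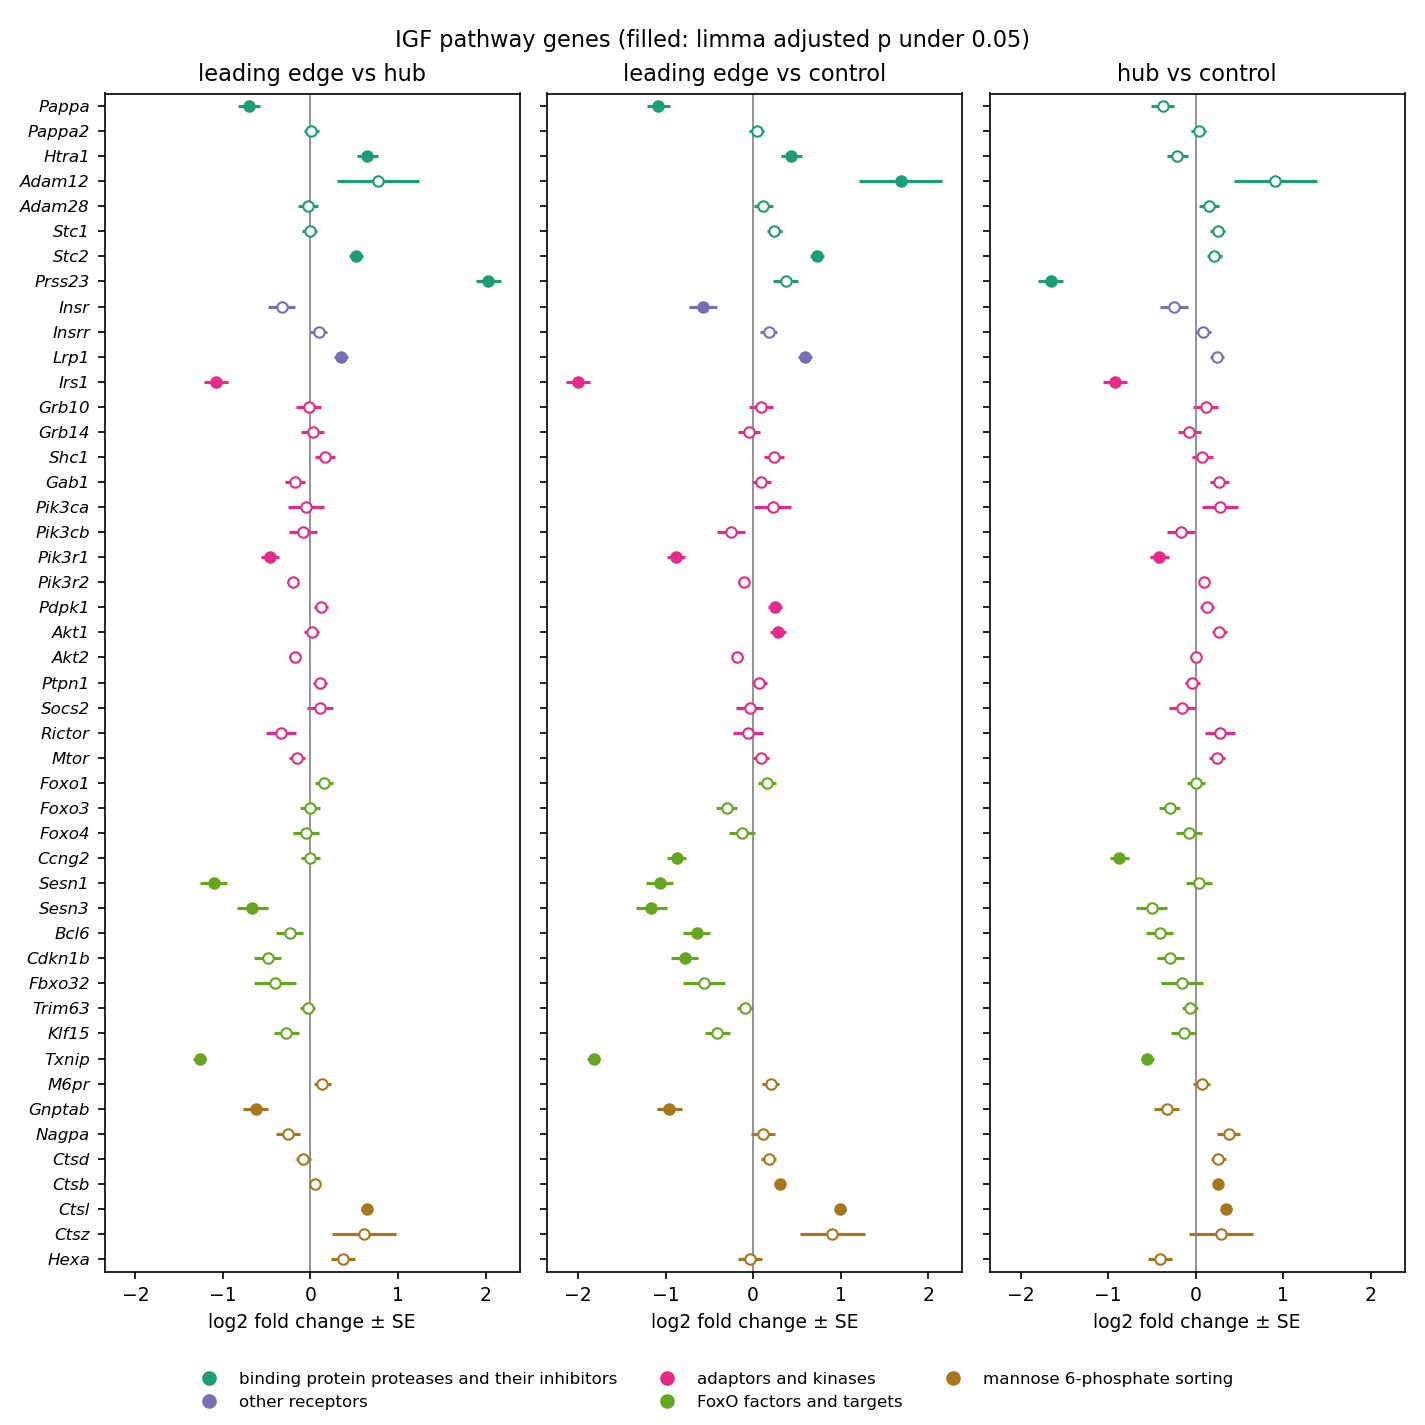
Log2 fold change ± SE (horizontal axis) of pathway genes (vertical axis), coloured by list, in 3 comparisons, where filled symbols mark an adjusted p under 0.05 in limma. *Prss23* lies far to the right in LE against hub and far to the left in hub against control, and *Irs1* and *Txnip* lie farthest to the left in LE against control.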

How the data were processed

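The deposited table held log2 expression values that the authors had made with the RMA algorithm (version not given in the sources used here) from Affymetrix mouse PM strip arrays. Of 45141 probe sets, 28898 had 1 gene symbol in the platform annotation, 551 had several and 15588 had none. RefSeq (GRCm38.p6) held the gene ID of 28689 of the first of these. The deposited log2 values were used without a filter or further scaling. The brightest probe set of each of 17097 genes was tested with limma 3.58.1 in R 4.3.3, two-sided, in 1 fit of 9 arrays with 3 group means and Benjamini-Hochberg adjustment over all genes. RMA shares 1 distribution between arrays, so changes are relative to the other genes. The fit was tested on simulated data. Precision is limited by 3 arrays per group, and no 2 arrays were identical.

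Genes named are the 8 listed, *Igf1*, *Igf2*, *Igfbp1* and *Insr* whatever their values, the called members of the pathway lists, and genes of the sort. No listed gene differed by 1 or more between group means, so none was matched to others by likeness. Members and lists were chosen with earlier results of these data known. Alternatives were 18 fits per result (other normalizations, weights, probe set rules, a replicate block, arrays left out) and fold rules.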

Additional observations from a re-analysis of the deposited data

Results flagged for a closer look

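For 14 genes, out of the 6 described and the 54 pathway genes measured, the change against control differed between LE and hub. The test was LE against hub itself in limma (values are the log2 difference LE minus hub). Of the genes chosen by name these were *Igfbp2* at -0.41 and *Igfbp3* at 0.84. Among proteases and inhibitors they were *Pappa* at -0.70, *Htra1* at 0.65, *Stc2* at 0.52 and *Prss23* at 2.03. Among receptors, adaptors and kinases they were *Lrp1* at 0.35, *Irs1* at -1.07 and *Pik3r1* at -0.46. Among FoxO targets they were *Sesn1* at -1.11, *Sesn3* at -0.66 and *Txnip* at -1.27, and in lysosomal sorting *Gnptab* at -0.63 and *Ctsl* at 0.65. These are the LE against hub calls already given, in a test where 5.39% of all genes were called higher and 5.23% lower. The calls of *Igfbp2*, *Stc2*, *Lrp1*, *Pik3r1*, *Sesn3* and *Gnptab* were lost under some of the 18 alternatives. Groups of 3 arrays were not tested for outlying arrays.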

How the results depend on the processing

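Of 18 results for the 6 genes, 6 were called, and 3 of these kept their call under all 18 alternative fits: *Igfbp3* in LE against hub, and *Igfbp2* and *Igf1r* in LE against control. No sign of a called result reversed. Of the 12 not called, 10 were called under none of the 18, while *Igfbp6* in LE against control was called with array weights (adjusted p = 0.0462), and *Igf1r* in LE against hub with array weights and with the mean of its probe sets (lowest adjusted p = 0.0154). Leaving out single arrays gave 1 to 2 of the 6 genes called in LE against hub and 0 to 1 in hub against control. Requiring at least 2-fold as well left 0 of the 6 in each comparison, as did requiring more than 2-fold in every same-numbered pair. Over all genes, 1816, 3891 and 1244 were called in LE against hub, LE against control and hub against control. These became 319, 803 and 186 with the 2-fold requirement and 178, 515 and 89 by the pair rule. Hub against control gave 766 with the 6 arrays compared alone, and 699 to 1153 with single arrays left out, the lowest without hub replicate 3. Deviations from the group means correlated from -0.178 to 0.082 between same-numbered arrays, and from -0.146 to 0.118 between arrays of different numbers. The labels do not say what a number shares, so these correlations cannot show whether the arrays were paired. With the replicate block, 2, 3 and 1 of the 6 genes were called, and 1629, 3661 and 1006 of all genes. Intervals of differences not called, such as -0.82 to 0.13 for *Igfbp4* in LE against hub, still allow sizeable change, and *Igfbp5* lies too near background for a change to be read.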
